A study of Homo sapiens with 4 samples.

Results

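The transcripts described here encode the enzymes that add methyl groups to lysines of histones and the enzymes that remove them. Members were the rows of a table of TPM values (transcripts per 1e+06) whose gene symbol begins with KMT, KDM or SETD as the name of such an enzyme, together with NSD1, EZH1, EZH2, EHMT1, ASH1L, DOT1L, SUV39H1 and SUV39H2. EHMT2 was not analysed here. The rule found 49 of the 26830 gene rows. Of these, 46 are enzyme or enzyme-like genes, with 27 on the methyltransferase side and 19 demethylases, and 3 are rows that share their symbol, namely the antisense RNAs KDM4A-AS1 and KMT2E-AS1 and the read-through SETDB2-PHF11. The study asked which RNAs are bound by QKI7 in U2OS, a human osteosarcoma cell line. All 4 libraries came from U2OS cells infected with a lentivirus for Flag-tagged QKI7, kept as a GFP-positive population and cross-linked with ultraviolet light. The input group (n = 2) was sequenced without precipitation, and the Flag-RIP group (n = 2) is RNA recovered with a Flag antibody from sonicated lysates. Both groups thus carried the tagged protein, and a mock precipitation or cells without the tag were not analysed here. The labels do not say whether replicates came from separate cultures, and each p-value therefore reflects the spread among these libraries alone, which may be technical.

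Methylation of histone lysines marks the state of chromatin without changing the DNA. Marks on H3K4, H3K36 and H3K79 lie at active promoters, enhancers and transcribed gene bodies, whereas marks on H3K9, H3K27 and H4K20 are known from silent or compacted chromatin. Most of the methyltransferases share a catalytic SET domain. The demethylases are either flavin-dependent amine oxidases, the LSD1 type, or oxygenases with a Jumonji domain that need iron and 2-oxoglutarate, the KDM families from KDM2 onwards. QKI, of which QKI7 is 1 isoform, binds RNA through a STAR domain and is known in many tissues as a regulator of splicing, stability and localisation of its target RNAs.

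TPM is a length-normalised share of a library, so it allows levels to be compared between genes but keeps no read depth, and no counting interval is given. The tagged cells' QKI row stood at 3.83 and 5.85 TPM in the inputs and 60.7 and 42.0 in Flag-RIP. Of the osteoblast and mesenchymal markers checked, VIM was at 140.5 TPM or more, COL1A1 at 53.8 or more and SPARC at 35.1 or more in every library. RUNX2 was at 0.61 and 1.12 in the inputs and 6.52 and 4.05 in Flag-RIP, and COL1A2 and ALPL stayed at or under 0.37 TPM. Epithelial, blood and endothelial markers did not pass 0.58 TPM in any library. The whole transcriptome was shifted between the groups: the median TPM of the 10415 tested genes, those whose TPM averaged at least 1, was 1.29 and 2.01 for the inputs against 5.72 and 5.37 for Flag-RIP. Synthetic ERCC spike-in RNAs took 2.78% and 3.89% of the inputs and 18.9% and 25.6% of Flag-RIP. The rows RN7SL1 and RN7SL2 together took 84.6% and 79.7% of the inputs and 39.8% and 43.4% of Flag-RIP. Because TPM is a share, a smaller share of these rows leaves more for all other genes. How much of the shift of the medians this accounts for was not tested.

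Of the 49 members, 38 passed the filter. These were 24 methyltransferase genes, 13 demethylase genes and KMT2E-AS1. Among the 38, 11 had a mean input TPM under 1 and so passed through their RIP values. In the inputs the members were low to moderate in level. KDM1A was highest with a mean TPM of 7.86 ± 1.98 (SD, n = 2), followed by SETD5 with 5.49 ± 1.79, EHMT1 with 5.47 ± 1.48 and KDM5C with 4.97 ± 1.59. KDM1A was above SETD5 in both inputs, with SETD5 at 0.65 and 0.73 of its level. SETD5, EHMT1 and KDM5C differed from one another by less than their SDs. In Flag-RIP the order differed, with SETD5 first at 26.9 ± 4.09 TPM and KMT2D second at 23.2 ± 3.11. SETD5 was above KMT2D within each Flag-RIP library, at 29.76 against 25.35 TPM and 23.97 against 20.95. KMT2B (16.9 ± 0.95), KDM5C (16.6 ± 0.65), EHMT1 (16.5 ± 0.30) and KDM1A (16.1 ± 1.46) followed and were close together. KDM1A thus went from rank 1 in the inputs to rank 6 in Flag-RIP among the tested members, KMT2D from 6 to 2, and SUV39H1 from 10 to 23.

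As deposited, all 38 tested members were higher in Flag-RIP (limma on log2(TPM + 1), Benjamini-Hochberg adjusted p under the 0.05 threshold) and both RIP values lay above both input values for each of them. This was the case for nearly all RNAs, since 92.3% of all tested genes were called higher and 96.7% did not overlap. The median change of the tested members was 1.5 on the log2 scale against 1.2 over all tested genes. Without Flag-RIP replicate 1 the count was 29 (51.8% of all tested genes were called higher in that fit) and without Flag-RIP replicate 2 it was 33 (59.4% of all). Input replicate 1 was below input replicate 2 for all 38 members, as it was for 10074 of the 10415 tested genes. The members' ratios within replicate 1 are therefore larger throughout. The inputs thus differed by a shift that most genes shared, whereas the fit treats genes as separate. The adjusted p-values as deposited do not allow for this shared shift, and they rest on 2 libraries a group. What set the members apart from one another was how far each rose relative to the rest of the transcriptome.

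**Figure D1:**
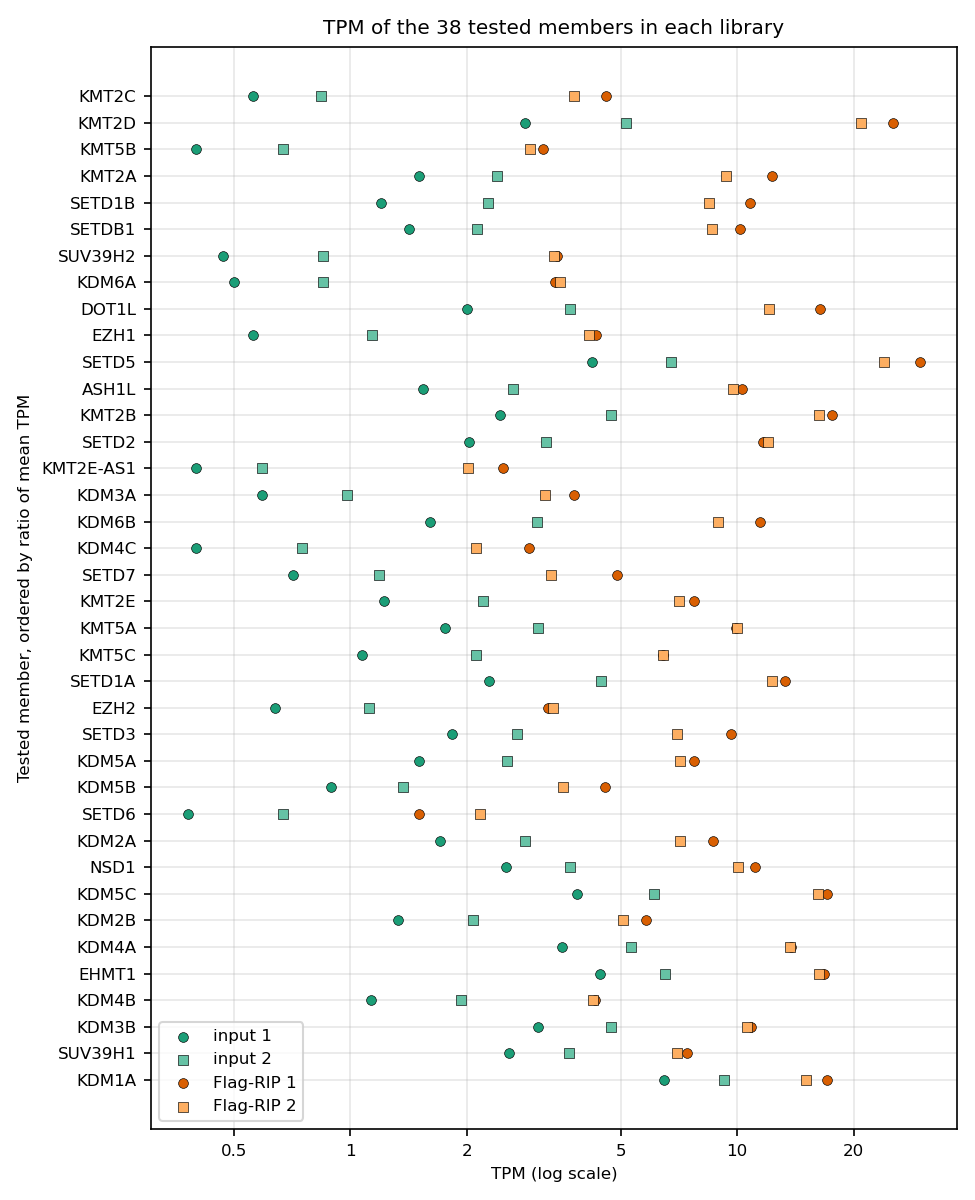
TPM of each tested member (log axis) in the 2 input libraries (green) and the 2 Flag-RIP libraries (orange), 1 row per gene, ordered from the smallest ratio of mean TPM at the bottom (KDM1A, 2.05) to the largest at the top (KMT2C, 5.97). The RIP points lie to the right of the input points in every row, and the distance between them grows towards the top.

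In plain TPM, the ratio of mean Flag-RIP to mean input ranged from 2.05 for KDM1A to 5.97 for KMT2C, with a median of 4.32 over the tested members and 3.32 over all tested genes. The ratio was above the all-gene median for 31 of the 38 (50% of all genes by construction) and above 4 for 22 (34.5% of all genes). The 11 members with a mean input TPM under 1 had to be higher in Flag-RIP to pass the filter. Among the 27 members at or above 1, 20 had a ratio above that median (36.2% of all such tested genes) and 13 a ratio above 4 (21.5% of them). The median ratio was 4.63 for the 24 methyltransferases, of which 17 were above 4, and 3.47 for the 13 demethylases, of which 4 were above 4. With a mean input TPM of at least 1, the medians were 4.54 for 17 methyltransferases, with 12 above 4, and 3.27 for 10 demethylases, with 1 above 4, against 2.86 over all such tested genes. The difference between the classes was not tested. The ratios taken within replicate 1 and within replicate 2 ranked the members alike (Pearson r = 0.86 and Spearman rho = 0.83 over 38 genes, a description, since the genes share their libraries). A ratio is a share of one library over a share of another, so in these bulk samples more copies of an RNA in the precipitate and less of the other RNAs cannot be told apart.

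**Figure D2:**
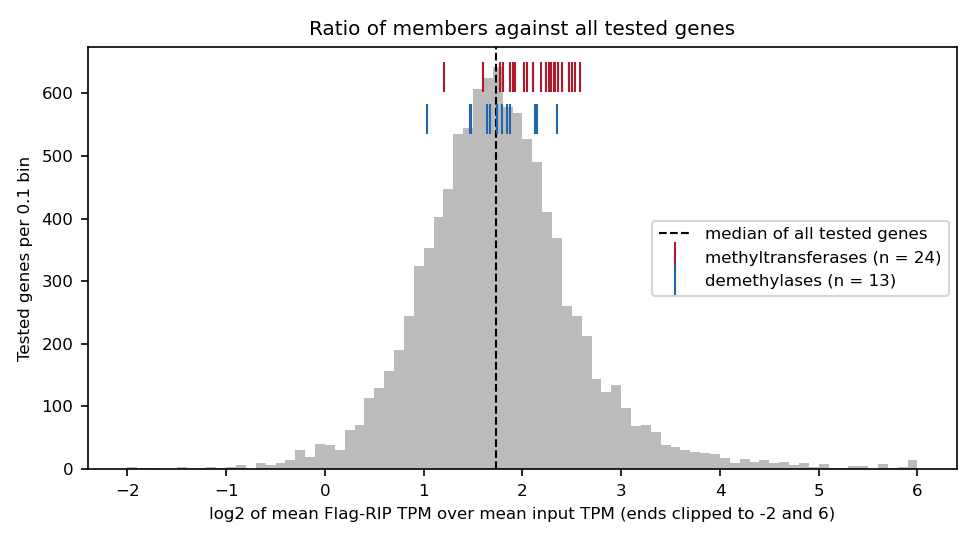
Log2 of the ratio of mean Flag-RIP TPM to mean input TPM (x axis) for all tested genes as a grey histogram, with each methyltransferase (red, n = 24) and demethylase (blue, n = 13) as a tick at its own value. The dashed line is the median of all tested genes, a ratio of 3.32. Most of the red ticks lie to its right (22 of 24), while the blue ticks spread over both sides (8 of 13 to the right).

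To compare each gene with the typical RNA of its library, the log2(TPM + 1) values of each library were shifted to a common median, and changes on this scale are called centred. Of the 38 tested members, 12 rose and 1 fell (limma adjusted p under the threshold), which is 31.6% and 2.63%, against 16.4% and 24.4% of all tested genes. The median centred change was 0.19 for the members and -0.11 for all tested genes. Of the 12 that rose, 11 were methyltransferases, out of 24 tested, and 1 was a demethylase, out of 13. Because a pseudocount of 1 holds back the change of low genes, members under about that level in the inputs can show a large ratio and a small centred change. The 27 members with a mean input TPM of at least 1, fitted among all such genes (a filter added after the data were seen), included 13 that rose and 2 that fell, against 18.2% and 31.1% of those genes. The centred calls depended on both inputs. All 12 kept a change above 0 when either was left out, but without input replicate 1 KMT2D alone was still called (3.19% of all tested genes were called higher in that fit), and without input replicate 2 the calls were DOT1L, KMT2B, KMT2D, SETD1B and SETD5 (7.17% of all).

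**Figure D3:**
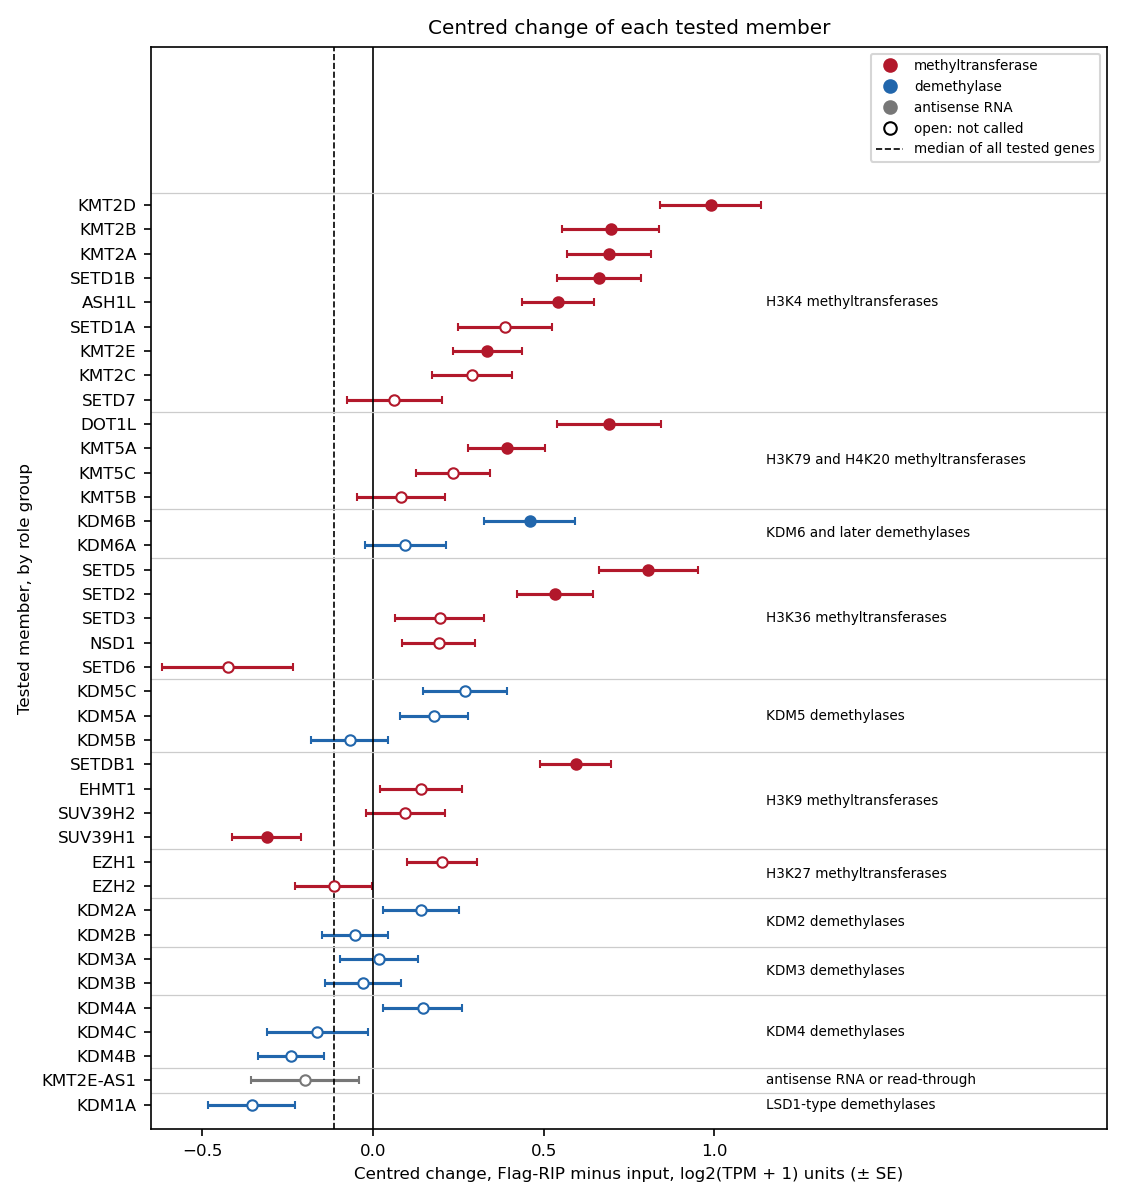
Centred change of each tested member (Flag-RIP minus input, log2(TPM + 1) units, point with standard error from limma), grouped by role, with methyltransferases in red, demethylases in blue and the antisense RNA in grey. Filled points passed the adjusted p threshold. KMT2D is highest at 0.99, SUV39H1 at -0.31 is the filled point below 0, and the dashed line is the median of all tested genes at -0.11.

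The enzymes grouped under H3K4 had the highest median of the role groups with more than a single tested gene. Of 9 tested, 6 rose and 0 fell (66.7% and 0%), against 16.4% and 24.4% of all tested genes. The median centred change was 0.54, which is the value of ASH1L. The 6 that rose include ASH1L, best known for H3K36, and KMT2E, without well established catalytic activity. The count and the median therefore depend on how the group was set. Ratios ran from 3.80 to 5.97, above the all-gene median for all 9. That holds for 50% of all tested genes by construction, and for 36.2% of those with a mean input TPM of at least 1. KMT2C and SETD7 had a mean input TPM under 1 and passed the filter through their RIP values. KMT2D, which with KMT2C places monomethyl marks on enhancers, had 2.83 and 5.17 TPM in the inputs and 25.4 and 20.9 in Flag-RIP. Both RIP libraries were far above both inputs, and the ratio of 5.79 was higher than that of 86.2% of tested genes. After centring it rose by 0.99 (SE 0.15, limma adjusted p = 0.0028). KMT2A, the MLL1 protein that acts with menin at developmental promoters, had 1.51 and 2.39 TPM in the inputs and 12.3 and 9.38 in Flag-RIP, and rose after centring by 0.69 (SE 0.12, limma adjusted p = 0.0050). Its closest relative KMT2B had 2.44 and 4.72 against 17.6 and 16.2, and rose after centring by 0.70 (SE 0.14, limma adjusted p = 0.0081). The groups did not overlap for either gene, and the ratio was 5.56 for KMT2A and 4.73 for KMT2B.

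SETD1B, which with SETD1A places most of the trimethyl mark at active promoters, had 1.2 and 2.27 TPM in the inputs and 10.8 and 8.48 in Flag-RIP, and rose by 0.66 (SE 0.12, limma adjusted p = 0.0058). SETD1A, with 2.29 and 4.45 against 13.3 and 12.3 TPM, had a centred change of 0.39 that did not pass (SE 0.14, limma adjusted p = 0.056). The ratio was 5.55 for SETD1B and 3.80 for SETD1A, and the difference between them was not tested in the fit. ASH1L, placed in this group although it is best known as an H3K36 methyltransferase, had 1.54 and 2.64 TPM in the inputs and 10.3 and 9.75 in Flag-RIP, a rise of 0.54 (SE 0.11, limma adjusted p = 0.0066). KMT2E, a SET-domain protein that reads methylated H3K4 and has no well established catalytic activity, had 1.22 and 2.21 against 7.72 and 7.08 TPM and rose by 0.34 (limma adjusted p = 0.033), a call lost without a variance trend (limma adjusted p = 0.060). KMT2C had the largest ratio of all tested members, 5.97, from 0.56 and 0.84 TPM in the inputs to 4.58 and 3.78 in Flag-RIP. With a pseudocount of 1 its centred change of 0.29 missed the threshold (limma adjusted p = 0.083), while with a pseudocount of 0.1 it was 0.72 (limma adjusted p = 0.012). SETD7, a monomethyltransferase with many substrates outside histones, had a centred change of 0.063 and a ratio of 4.32, and its RIP libraries differed at 4.90 and 3.30 TPM.

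Among the genes grouped under H3K36 by family, 2 of 5 rose and 0 fell (40% and 0%), against 16.4% and 24.4% of all tested genes. SETD5, a SET-domain protein mutated in a form of intellectual disability, was the most abundant member in Flag-RIP. It had 4.22 and 6.75 TPM in the inputs and 29.8 and 24.0 in Flag-RIP, a rise of 0.81 after centring (SE 0.14, limma adjusted p = 0.0050). SETD2, which trimethylates H3K36 behind elongating RNA polymerase II, had 2.03 and 3.20 against 11.7 and 12.1 TPM and rose by 0.53 (SE 0.11, limma adjusted p = 0.0085). Its RIP libraries were close together and both far above the inputs. NSD1, which dimethylates H3K36, had a centred change of 0.19, and SETD3, known as the histidine methyltransferase of actin, had 0.20. Their ratios of 3.41 and 3.68 were near the all-gene median of 3.32. Both were above the median of 2.86 over tested genes with a mean input TPM of at least 1. SETD6, whose known substrates include the NF-kappa-B subunit RELA, had the lowest centred change of the tested members at -0.43 but did not pass (limma adjusted p = 0.110). It had 0.38 and 0.67 TPM in the inputs and 1.51 and 2.16 in Flag-RIP, and its ratio of 3.50 was slightly above the all-gene median. It was called lower without Flag-RIP replicate 2 (-0.63, limma adjusted p = 0.036) and with a pseudocount of 5 (-0.36, limma adjusted p = 0.0040).

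Of the H3K79 and H4K20 enzymes, 2 of 4 rose and 0 fell (50% and 0%), against 16.4% and 24.4% of all tested genes. DOT1L, the H3K79 methyltransferase, which has no SET domain, had 2.00 and 3.69 TPM in the inputs and 16.4 and 12.1 in Flag-RIP. It rose by 0.69 (SE 0.15, limma adjusted p = 0.010). KMT5A, which monomethylates H4K20 in the cell cycle, had 1.76 and 3.06 against 9.91 and 9.98 TPM and rose by 0.39 (limma adjusted p = 0.027). The call of KMT5A was lost with a pseudocount of 0.1 (0.33, limma adjusted p = 0.070). KMT5B and KMT5C, which add the further methyl groups to H4K20, had centred changes of 0.082 and 0.23. KMT5B had the third largest ratio of the tested members, 5.67, from inputs of 0.40 and 0.67 TPM, and with a pseudocount of 0.1 it was called at 0.62 (limma adjusted p = 0.018).

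Of 4 tested H3K9 methyltransferases, 1 rose and 1 fell, which is 25% each, near the shares of all tested genes (16.4% and 24.4%). SETDB1, which acts at retroelements together with the corepressor TRIM28, had 1.42 and 2.13 TPM in the inputs and 10.2 and 8.60 in Flag-RIP, a rise of 0.59 (SE 0.10, limma adjusted p = 0.0047). SUV39H1, an enzyme of constitutive heterochromatin, had 2.57 and 3.68 against 7.41 and 7.01 TPM, a ratio of 2.31, and was the tested member that fell, by 0.31 (SE 0.10, limma adjusted p = 0.040). Its level as a share of each library was still higher in both RIP libraries, so the decrease is relative to the typical gene. That call was lost without input replicate 1 (limma adjusted p = 0.25) and without input replicate 2 (0.20), with a pseudocount of 5 (-0.076, limma adjusted p = 0.41) and without a variance trend (limma adjusted p = 0.062). The value was nearer 0, at -0.063, without the 20 most abundant rows (limma adjusted p = 0.86). SUV39H2, its near relative, had 0.47 and 0.85 against 3.42 and 3.36 TPM, a ratio of 5.14 and a centred change of 0.10. EHMT1, which dimethylates H3K9, had 4.42 and 6.51 against 16.7 and 16.3 TPM, with a ratio of 3.02 and a centred change of 0.14 (limma adjusted p = 0.37). The catalytic subunits of Polycomb repressive complex 2, EZH1 and EZH2, were both low and neither passed. EZH1 had 0.56 and 1.14 against 4.33 and 4.15 TPM with a centred change of 0.20 (limma adjusted p = 0.15), and EZH2 had 0.64 and 1.12 against 3.24 and 3.34 with -0.12 (limma adjusted p = 0.43).

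Demethylase transcripts lay closer to the typical gene. Of the 13 tested, 1 rose and 0 fell (7.69% and 0%), against 16.4% and 24.4% of all tested genes. The median centred change was 0.017. KDM6B, a Jumonji demethylase of H3K27 induced in inflammation, was the one that rose, from 1.61 and 3.04 TPM in the inputs to 11.4 and 8.95 in Flag-RIP, by 0.46 (SE 0.13, limma adjusted p = 0.028). The call was lost with a pseudocount of 0.1 (0.42, limma adjusted p = 0.076) and with quantile normalization (0.41, limma adjusted p = 0.054). KDM6A, the X-linked enzyme of the same mark, had 0.50 and 0.85 against 3.39 and 3.48 TPM, a ratio of 5.09 and a centred change of 0.10. KDM1A, the LSD1 protein that works with the corepressor CoREST to remove H3K4 marks, was at the other end. It had 6.46 and 9.26 TPM in the inputs and 17.1 and 15.0 in Flag-RIP, a ratio of 2.05 that was higher than that of only 15.7% of tested genes. Its centred change of -0.36 missed the threshold (SE 0.13, limma adjusted p = 0.056), though it passed at -0.68 with a pseudocount of 0.1 (limma adjusted p = 0.012) and at -0.38 among genes with a mean input TPM of at least 1 (limma adjusted p = 0.032).

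The tested KDM5 enzymes, which remove the trimethyl mark of H3K4, had ratios of 3.34 to 3.66, near the all-gene median of 3.32. These ratios were above the median of 2.86 over tested genes with a mean input TPM of at least 1, to which these enzymes belong. KDM5C had 3.85 and 6.10 TPM in the inputs and 17.1 and 16.2 in Flag-RIP, with a ratio of 3.34 and a centred change of 0.27 (limma adjusted p = 0.12). The centred change was 0.18 for KDM5A and -0.068 for KDM5B, and neither passed. Of the KDM4 enzymes, which act on trimethylated H3K9 and H3K36, KDM4A had 3.52 and 5.32 against 13.8 and 13.7 TPM, a ratio of 3.11 and a centred change of 0.15 (limma adjusted p = 0.34). KDM4B had -0.24 and KDM4C -0.16, with ratios of 2.79 and 4.36. KDM2A, which binds unmethylated CpG islands and removes H3K36 marks, had 1.71 and 2.83 against 8.65 and 7.11 TPM and a centred change of 0.14 (limma adjusted p = 0.34), and KDM2B had -0.053. Of the KDM3 enzymes, which act on H3K9, KDM3B had 3.05 and 4.71 against 10.9 and 10.6 TPM with a ratio of 2.77 and a centred change of -0.030 (limma adjusted p = 0.85). KDM3A had 0.017 with a ratio of 4.44.

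Ratios between 2 genes of the same library do not depend on how libraries are scaled. Summed over the 27 methyltransferase rows, the inputs held 40.9 and 68.3 TPM and the RIP libraries 253.6 and 222.8 TPM, and over the 19 demethylase rows they held 27.5 and 43.1 TPM against 115.5 and 104.8 TPM. The methyltransferase sum was 1.49 and 1.59 times the demethylase sum in the inputs and 2.20 and 2.13 times in Flag-RIP. The groups did not overlap, and the difference was several times the gap between replicates. With 2 libraries a group an exact two-sided permutation test cannot go below p = 0.333, and none of these ratios can pass such a test. KMT2D was at 0.44 and 0.56 of the level of KDM1A in the inputs and at 1.48 and 1.39 times it in Flag-RIP, a pair chosen after the values were seen.

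Paralogues were also taken pair by pair. Of 11 pairs set by family, 7 had both Flag-RIP ratios above both input ratios and 4 overlapped. Which gene was the numerator was a choice that sets the direction, and the same count was not made over other gene pairs. SUV39H2, KDM3A, KMT5B, EZH1, EZH2, KMT2C and KDM6A had a mean input TPM under 1 and passed the filter through their RIP values. The largest shift was in SUV39H2 relative to SUV39H1, at 0.18 and 0.23 in the inputs and 0.46 and 0.48 in Flag-RIP. KDM3A relative to KDM3B went from 0.19 and 0.21 to 0.35 and 0.30, and SETD1B relative to SETD1A from 0.52 and 0.51 to 0.81 and 0.69. EZH1 relative to EZH2 went from 0.88 and 1.02 to 1.34 and 1.24, and KMT5B relative to KMT5C from 0.37 and 0.32 to 0.49 and 0.45. In KDM2A relative to KDM2B and KDM4A relative to KDM4B the gap between the groups was smaller than the spread of the inputs. The pairs KMT2A and KMT2B, KMT2D and KMT2C, KDM5A and KDM5B, and KDM6A and KDM6B overlapped between the groups, so no difference beyond the spread of these libraries was seen.

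**Figure D4:**
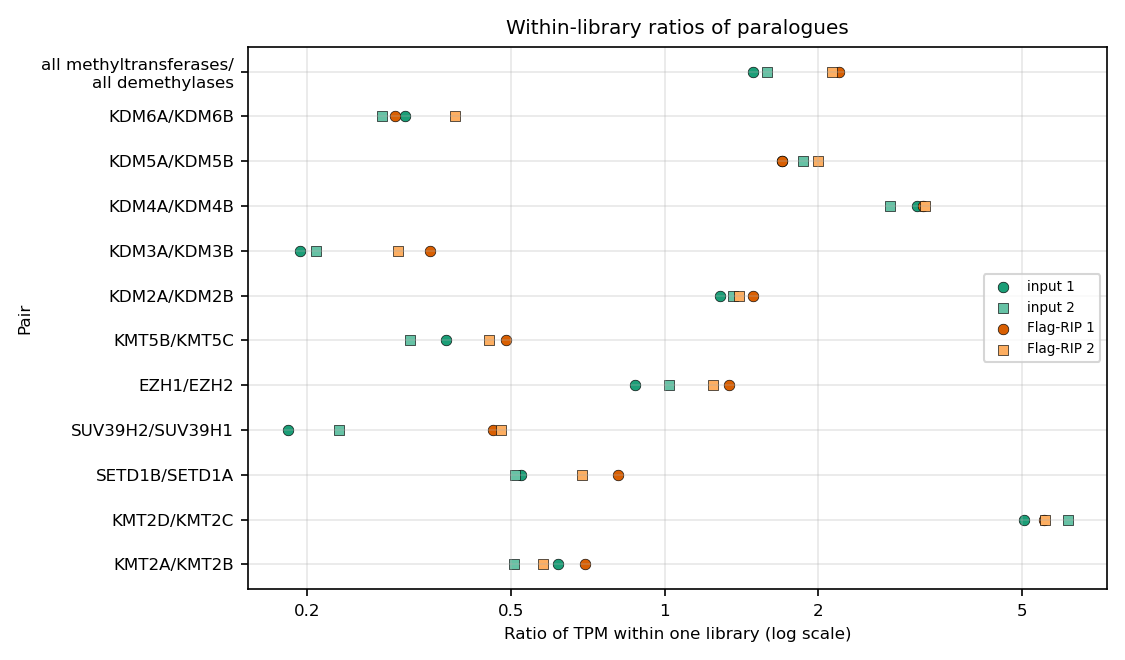
Ratio of TPM between the 2 genes of each paralogue pair within a library (log axis), and at the top the ratio of the methyltransferase sum to the demethylase sum, with inputs in green and Flag-RIP in orange. SUV39H2 over SUV39H1 moves from about 0.2 to 0.46 and 0.48, while the points of KMT2D over KMT2C and of KDM5A over KDM5B overlap.

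The direction of a single member depended on the scale between libraries. With the 20 most abundant rows removed and TPM computed anew, 23 members were called higher and 0 lower (36% of all tested genes were called higher) and the median was 0.80. Scaled to the summed ERCC spike-ins, 0 were called higher and 14 lower (60.9% of all tested genes were called lower), with a median of -0.44 and every member below 0. The amount of spike-in and the step at which it was added are not stated in the labels. On that scale KMT2D had -0.13 and KDM1A -1.54, and after centring they had 0.99 and -0.36.

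**Figure D5:**
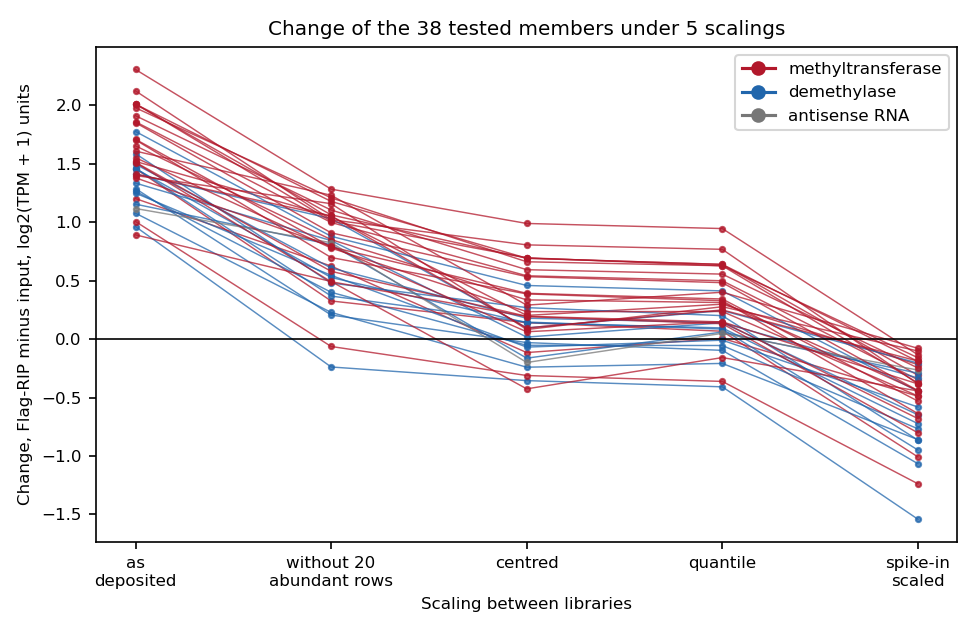
Change of each of the 38 tested members (Flag-RIP minus input, log2(TPM + 1) units, 1 line per gene) under 5 ways of scaling the libraries, with methyltransferases in red, demethylases in blue and the antisense RNA in grey. All lines are above 0 as deposited and below 0 when scaled to the spike-ins, where the lowest line is KDM1A.

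The 11 members under the filter were KDM1B, KDM4D, KDM4E, KDM5D, KDM7A, KDM8, SETD4, SETD9, SETDB2, KDM4A-AS1 and SETDB2-PHF11. KDM1B, the second LSD1-type enzyme, had 0.39 and 0.56 TPM in the inputs and 1.28 and 1.48 in Flag-RIP. KDM8 had 0.32 and 0.45 against 1.71 and 1.30, SETD4 0.15 and 0.27 against 1.18 and 1.41, and KDM7A 0.11 and 0.20 against 0.85 and 0.95. SETD9 did not pass 0.53 TPM and SETDB2 0.15 TPM in any library. KDM4D had 0.11 TPM in both inputs and 0.15 and 0.53 in Flag-RIP, so 1 RIP library was close to the inputs and the other was not. KDM4E was listed at 0.27 TPM or less.

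Both antisense RNAs were higher in both RIP libraries. KMT2E-AS1 had 0.40 and 0.59 TPM in the inputs and 2.48 and 2.01 in Flag-RIP, a ratio of 4.54 and a centred change of -0.20 that did not pass (limma adjusted p = 0.34). In RefSeq it lies on chromosome 7 from 105010542 to 105014141 on the minus strand, just outside KMT2E, which begins at 105014205 on the plus strand. KDM4A-AS1 had 0.14 and 0.29 TPM against 1.72 and 1.12. It overlaps KDM4A by 5795 bases on chromosome 1, and since the library kit marks strand but no label states whether counting used it, reads of KDM4A and its antisense RNA may not be fully separated. SETDB2-PHF11 begins at the same base as SETDB2 on chromosome 13 and covers all 50730 bases of it, so the values of SETDB2 and of the read-through are uncertain.

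The members are scattered over the genome. In RefSeq GRCh38.p14, to which all 49 matched by symbol, KMT2D lies on chromosome 12 from 49018978 to 49060794, SETD5 on chromosome 3 from 9397615 to 9478154, SETDB1 on chromosome 1 from 150926263 to 150964737, KDM1A on chromosome 1 from 23019468 to 23083689 and SUV39H1 on chromosome X from 48695554 to 48709016. The tested members spanned a median of 66434 bases, against 27777 for the 9685 tested genes matched by symbol. Among the members the log2 ratio did not follow the log2 of the genomic span (Pearson r = 0.00049, Spearman rho = -0.076 over 38 genes), while over all genes it did weakly (0.15 and 0.25). It was lower for members with a higher input level (Pearson r = -0.44, Spearman rho = -0.36), as it was over all genes with values above 0 (-0.59 and -0.58). The centred change of the members went the other way and was higher with a higher input level (Pearson r = 0.38, Spearman rho = 0.41). These correlations are across genes of the same 4 libraries and are given as descriptions. Those with the input level share the input value on both axes. With 1 value a gene, the bound region within a transcript is not seen.

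Transcripts of the enzymes' partner proteins were looked at through lists set by complex. Of 12 tested partners in COMPASS, the complex in which the KMT2 and SETD1 enzymes work, 2 rose and 1 fell after centring. That is 16.7% and 8.33%, against 16.4% and 24.4% of all tested genes, so the share that rose was near that of all genes. Those that rose were PAGR1 at 0.73 and NCOA6 at 0.54, both subunits found with KMT2C and KMT2D, and CXXC1, a subunit of the SETD1 complexes, fell by 0.46. The list median was 0.0050. Of 9 Polycomb repressive complex 2 partners, 0 rose and 3 fell (0% and 33.3%), with a median of -0.26. Those that fell were RBBP7 by 0.44, MTF2 by 0.40 and SUZ12 by 0.39. SUZ12 and MTF2 missed the threshold with a pseudocount of 0.1 (limma adjusted p = 0.14 and 0.26) and with quantile normalization (0.091 and 0.10). RBBP7 missed it with a pseudocount of 5 (limma adjusted p = 0.10). Of 7 partners of the H3K9 pathway, CBX5, the gene of heterochromatin protein HP1 alpha, rose by 0.50 and TRIM28 fell by 0.55. That is 14.3% each, and the median was -0.063. Among 6 partners of DOT1L and the elongation complexes it binds, MLLT6 rose by 1.02 and AFF4 by 0.50, and 0 fell. That is 33.3% and 0%, and the median was 0.16. Names outside the 2 largest changes of a list are given here to complete its count, after their values were seen. Of the 32 partner and related genes called over all lists, 2 were still called without input replicate 1 (MBD2 and JMJD1C), 9 without input replicate 2, 24 without Flag-RIP replicate 1, 20 with a pseudocount of 0.1, and 25 with a pseudocount of 5.

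Of 17 partners in the LSD1 and NuRD corepressors, 4 rose and 2 fell, with a median of 0.083. That is 23.5% and 11.8%, against 16.4% and 24.4% of all tested genes. MBD2, which binds methylated DNA, had 0.56 and 0.93 TPM in the inputs and 50.6 and 26.1 in Flag-RIP, a ratio of 51.5 over a mean input of 0.745 TPM, too low to pass the filter without its RIP values, and a rise after centring of 3.11 (SE 0.24, limma adjusted p = 4.5e-04). Its RIP libraries differed widely in level, and both were far above the inputs. GATAD2B, a further NuRD subunit, rose by 0.65, CHD3 by 0.54 and PHF21A by 0.33, while RCOR2 fell by 0.48 and HDAC2 by 0.44. Lysine methyltransferases and demethylases that carry other names numbered 14, of which 4 rose and 2 fell (28.6% and 14.3%), with a median of -0.023. JMJD1C, a Jumonji protein related to KDM3A and KDM3B, had 0.98 and 1.81 TPM in the inputs and 16.1 and 11.7 in Flag-RIP, a ratio of 9.98 and a rise after centring of 1.33 (SE 0.14, limma adjusted p = 9.7e-04), which is above that of every member found by the symbol rule. WHSC1 and WHSC1L1, the relatives of NSD1 now called NSD2 and NSD3, rose by 0.61 and 0.46 and PHF8 by 0.32, while SMYD3 fell by 0.67 and MINA by 0.47.

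Enzymes of other histone marks were counted in the same way. Of 6 arginine methyltransferases, 0 rose and 4 fell (0% and 66.7%), with a median of -0.39. These were PRMT1, the main enzyme of asymmetric dimethylation, by 0.93, PRMT5 by 0.75, CARM1 by 0.44 and PRMT6 by 0.35. PRMT1 had 19.4 and 22.9 TPM in the inputs and 25.6 and 30.5 in Flag-RIP, a ratio of 1.33. Of 12 acetyltransferases, 2 rose, EP300 by 0.62 and KAT2A by 0.57, and 3 fell, KAT5, HAT1 and KAT8 by 0.47, 0.44 and 0.41. That is 16.7% and 25%, near the shares of all tested genes, and the median was 0.17. Of 9 deacetylases, HDAC7 rose by 0.51 and HDAC2, which is also in the corepressor list, fell by 0.44. That is 11.1% each, and the median was -0.11. The shares of all tested genes that rose and fell, 16.4% and 24.4%, apply to each of these lists, and no list was tested against the others.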

How the data were processed

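RNA immunoprecipitation sequencing was represented by 1 table of TPM values that the authors deposited, with 1 column for each of 2 input and 2 Flag-RIP libraries. The authors made them with the aligner STAR and the quantifier RSEM (version 1.2.31) on GRCh38, tools and build listed per the submitters' processing notes. The annotation, any filter and the use of strand are not given in the sources here. Each TPM column sums to 1000000 within rounding, ERCC rows included, and keeps no depth. Precision therefore rests on the spread between replicates, which the fit pools over genes.

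ERCC rows (92) were left out of the test. The 10415 genes averaging a TPM of at least 1 were tested in R (4.3.3) using limma (3.58.1), with lmFit and trended eBayes on log2(TPM + 1), two-sided, Benjamini-Hochberg adjustment over all tested genes and a threshold of 0.05, as deposited and after shifting each library to a common median. Residual degrees of freedom were 2. The prior degrees of freedom from eBayes were infinite as deposited and 5.72 after centring. As deposited the spread of each gene was thus taken wholly from the trend over genes, and after centring in part. Named genes were the 10 largest called increases and decreases among members, the most abundant tested member of each role group, and the 2 largest changes in each partner list; other members follow with fewer values. Members and lists were chosen with earlier results of these data known. Symbols were matched to RefSeq GRCh38.p14. Alternatives were pseudocounts of 0.1 and 5, other filters, variance settings and scalings, a replicate block, and each library left out; the minimum on mean input TPM was added after the data were seen.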

Additional observations from a re-analysis of the deposited data

How the results depend on the processing

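The deposited direction of all 38 tested members was above 0 under every alternative run on that scale; centred values were less stable. With a mean TPM of at least 5, 21 members were tested and called higher as deposited (87% of all genes). The deposited median was 2.02 with a pseudocount of 0.1 and 0.83 with 5. Leaving out 1 library at a time gave 29 to 38 higher and 0 lower calls and medians of 1.27 to 1.71 as deposited. After centring it gave 1 to 15 higher calls (3.19% to 22% of all genes) and 0 to 3 lower calls (3.09% to 30.6%). The centred medians were 0.15 to 0.21. Centred higher calls numbered 37 with no filter, a fit that counts all 49 members (28.8% of all genes higher and 44.3% lower). They numbered 15 and 17 with pseudocounts of 0.1 and 5 (19.3% and 22.6% of all genes). With the 20 most abundant rows removed they numbered 23 (36% of all genes), and on the spike-in scale 0 (3.12%). Centred lower calls numbered 2 and 3 with pseudocounts of 0.1 and 5 (25.4% and 33.4% of all genes). With no filter they numbered 4, none of them among the 38 members tested otherwise. They numbered 2 with a mean TPM of at least 5 (29.3%), 2 with a mean input TPM of at least 1 (31.1%) and 2 with quantile normalization (20.5%). With the 20 most abundant rows removed they numbered 0 (7.02%), and on the spike-in scale 14 (60.9%). The centred median was 0.87 with no filter, 0.33 with a mean TPM of at least 5, 0.80 with the 20 most abundant rows removed and -0.44 on the spike-in scale. The medians with no filter also take in all 49 members. With no filter the common median is taken over many more low genes and lies elsewhere. For the other changes the cause was not tested. With the replicate block, 12 members were higher and 0 lower after centring, since SUV39H1 no longer passed (limma adjusted p = 0.067); the labels do not pair the libraries, and the deviations of same-numbered libraries from their group means correlated at r = -0.067 over tested genes. The block also ended the calls of the partner genes MTF2, TRIM28, HDAC2 and PHF8 (limma adjusted p = 0.053, 0.050, 0.054 and 0.051). The following centred values of single genes lay on the other side of 0 from those in the report. The spike-in scale gave EHMT1 -1.01, KDM4A -0.95, KDM5C -0.86, NSD1 -0.80, CHD3 -0.75, HDAC7 -0.74, KDM2A -0.72, SETD3 -0.68, KDM5A -0.65, SETD1A -0.64, AFF4 -0.63, WHSC1 -0.62, KAT2A -0.58, EP300 -0.56, KMT5A -0.53, KMT5C -0.49, KDM6B -0.45, WHSC1L1 -0.44, KMT2E -0.44, SETD2 -0.44, NCOA6 -0.41, PHF8 -0.39, SETD7 -0.38, SETD5 -0.38, KMT2B -0.37, PHF21A -0.36, ASH1L -0.35, CBX5 -0.34, KDM3A -0.33, DOT1L -0.31, PAGR1 -0.26, SETDB1 -0.25, EZH1 -0.22, KDM6A -0.21, KMT2A -0.19, SUV39H2 -0.19, GATAD2B -0.17, SETD1B -0.16, MLLT6 -0.14, KMT2D -0.13, KMT5B -0.10 and KMT2C -0.079. A pseudocount of 0.1 gave EHMT1 -0.12, KDM4A -0.077, KDM5B 0.053, EZH2 0.11, KDM4C 0.26 and KMT2E-AS1 0.27. A pseudocount of 5 gave KMT5B -0.13, KDM3A -0.11, SUV39H2 -0.098, KDM6A -0.095, SETD7 -0.058, EZH1 -0.0059, TRIM28 0.0081, KDM1A 0.052 and KDM3B 0.17. The fit with no filter gave PRMT5 0.024, SMYD3 0.11, TRIM28 0.22, RCOR2 0.29, KAT5 0.31, MINA 0.31, CXXC1 0.32, HAT1 0.33, CARM1 0.33, HDAC2 0.33, RBBP7 0.34, SETD6 0.35, KAT8 0.36, MTF2 0.38, SUZ12 0.39, KDM1A 0.42, PRMT6 0.43, SUV39H1 0.46, KDM4B 0.54, KMT2E-AS1 0.58, KDM4C 0.61, EZH2 0.66, KDM5B 0.71, KDM2B 0.72 and KDM3B 0.75. Quantile normalization gave EZH2 0.0062, KMT2E-AS1 0.049 and KDM4C 0.060. Removal of the 20 most abundant rows gave HAT1 0.11, SUZ12 0.16, RCOR2 0.18, KDM3B 0.21, MINA 0.21, KDM4B 0.23, HDAC2 0.30, MTF2 0.32, KDM2B 0.40, SETD6 0.49, KDM5B 0.55, EZH2 0.62, KDM4C 0.81 and KMT2E-AS1 0.82. With 1 library left out at a time, centred values crossed 0 for KDM3A from -0.042 to 0.077, KDM3B from -0.080 to 0.021, KDM5B from -0.17 to 0.038 and SETD7 from -0.13 to 0.25. TPM carries no depth, and no bound is set on how small a difference these values could show.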
